A study of Mus musculus with 5 samples.

Results

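The Nppa and Nppb locus on mouse chromosome 4 carried 27 of the 21703 regions that chromatin immunoprecipitation with sequencing (ChIP-seq) gave for 3 cardiac transcription factors in adult mouse heart. They are all the regions of the Tbx3, Nkx2-5 and Gata4 lists that overlap positions 147250000 to 147480000 of chromosome 4 in the mm9 build, a window chosen to hold both genes with about 100 kb on each side. Membership was set by the window's position and by no value of the regions. The choice of members was made with earlier results of these data known. By this rule the genes lie between about 147.35 and 147.38 Mb, called the gene interval here. No mm9 annotation was used, so the exact ends of the genes, their exons and their introns are not given. Distances to the gene interval are therefore distances to its approximate bounds, not to the genes. In the RefSeq gene order of GRCm38.p6, used for names and order only, Nppb and Nppa are direct neighbours, with 2510039O18Rik before Nppb and Clcn6 after Nppa.

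All hearts were adult and of FVB/N background, and each factor is represented by 1 library. Tbx3 was precipitated (antibody A-20) from hearts of genotype Myh6-MCM;CAG-CAT-TBX3, in which the cardiomyocyte promoter Myh6 drives a Cre recombinase that switches on a TBX3 transgene, so the Tbx3 list does not describe Tbx3 at its natural level. Nkx2-5 (antibody N-19) and Gata4 (antibody C-20) were precipitated from wild-type hearts. The factor and the genotype cannot be told apart for Tbx3. The control library (the same Tbx3 antibody in Myh6-MCM hearts) and the p300 library of the same series were not analysed here. The lists held 13242 Tbx3, 6705 Nkx2-5 and 1756 Gata4 regions, each as a position with no read number, height or score. The depth and the strength of each region are therefore unknown, and no difference between the lists has a replicate check.

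Nppa and Nppb encode atrial and B-type natriuretic peptide, hormones that cardiomyocytes release and that promote salt and water excretion and relax blood vessels. Both genes are active in the embryonic heart, and Nppa stays strongly active in the adult atria. Pressure load and heart failure raise both, and B-type natriuretic peptide is a common blood marker of heart failure. Gata4, a zinc-finger factor, and Nkx2-5, a homeodomain factor, are known activators of the Nppa promoter, and Tbx3, a T-box factor of the conduction system, is known to repress Nppa.

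The upstream promoters of the 2 genes are shown because they are the best known control sequences of the pair and because every Gata4 region of the locus lay in the gene interval. Each sequence is the 250 bases before the transcription start in RefSeq (GRCm38.p6), 5′ to 3′ on the plus strand. Nppb occupies chr4:147985650-147985899 and Nppa chr4:148000472-148000721 in that build. These positions cannot be set against the mm9 positions of the regions, and whether a region covers a promoter was not tested. Capitals mark matches, on either strand, to GATAA or TTATC (the core letters bound by Gata factors), AAGTG or CACTT (Nkx2-5) and GGTGT or ACACC (T-box factors).
Nppb: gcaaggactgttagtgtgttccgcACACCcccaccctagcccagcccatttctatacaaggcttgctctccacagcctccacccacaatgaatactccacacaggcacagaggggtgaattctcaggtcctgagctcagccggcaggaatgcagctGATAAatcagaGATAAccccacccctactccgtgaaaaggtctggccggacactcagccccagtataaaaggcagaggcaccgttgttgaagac
Nppa: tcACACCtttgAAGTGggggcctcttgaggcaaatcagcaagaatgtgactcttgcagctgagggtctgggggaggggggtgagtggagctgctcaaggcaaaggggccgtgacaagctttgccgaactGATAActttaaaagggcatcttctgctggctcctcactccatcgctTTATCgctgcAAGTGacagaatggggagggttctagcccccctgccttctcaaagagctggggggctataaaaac

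Both promoters held 2 matches to the Gata motif. In Nppb they started 94 and 83 bases before the transcription start, and in Nppa 121 and 75 bases before it. Of 32851 promoter sequences of this length in the table, which lists several starts for some genes, 22.6% held at least 1 Gata match and 4.28% held 2 or more. The Nkx2-5 motif was matched at 2 places in Nppa, starting 239 and 65 bases before the start, and at none in Nppb. Of all promoters, 40.7% held at least 1 Nkx2-5 match and 10.2% held 2 or more. The T-box motif was matched once in each, 248 bases before the start of Nppa and 226 bases before that of Nppb (36.2% of all promoters held at least 1). No match overlapped another. Matches to such short motifs describe the letters and do not show binding.

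Counted region by region, Gata4 was the most frequent factor at the locus, although its list is the shortest. It had 12 regions there, against 8 for Tbx3 and 7 for Nkx2-5. The order turned when regions of a list at most 1 kb apart were joined and counted as 1 place: Gata4 then had 3 places, Tbx3 7 and Nkx2-5 6. Without joining, Gata4 supplied 44.4% of the regions at the locus, against 8.09% of the regions of all 3 lists. As a share of each list, the locus held 0.683% of the Gata4 regions (exact binomial 95% interval 0.354 to 1.19%), 0.104% of the Nkx2-5 regions (0.0420 to 0.215%) and 0.0604% of the Tbx3 regions (0.0261 to 0.119%). The intervals reflect the counts alone and treat neighbouring regions as separate. As the 12 Gata4 regions form 3 places, the Gata4 interval is too narrow and cannot set Gata4 apart from the other lists. Gata4 regions covered 2838 bp of the window, Tbx3 regions 1470 bp and Nkx2-5 regions 1312 bp.

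All 12 Gata4 regions, which form 3 places when joined across 1 kb, were in the gene interval. The Tbx3 and most Nkx2-5 regions lay on its flanks. Of the 7 Nkx2-5 regions, 5 lay before it, 1 inside it and 1 after it. The 8 Tbx3 regions were split into 4 before and 4 after, with none inside. The gene interval takes up 30 kb of the 230 kb window, so by length alone most regions would lie on its flanks. With so few regions, the flank positions of Tbx3 and Nkx2-5 cannot be told apart from such placement. A stretch of 68.9 kb (147343790 to 147412654) that includes the gene interval held no Tbx3 region. Such stretches are also found elsewhere: of 4955 other windows of 230 kb with a region of any list, 4058 held any Tbx3 region and the rest held none. The map of the locus shows the arrangement of the regions.

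**Figure D1:**
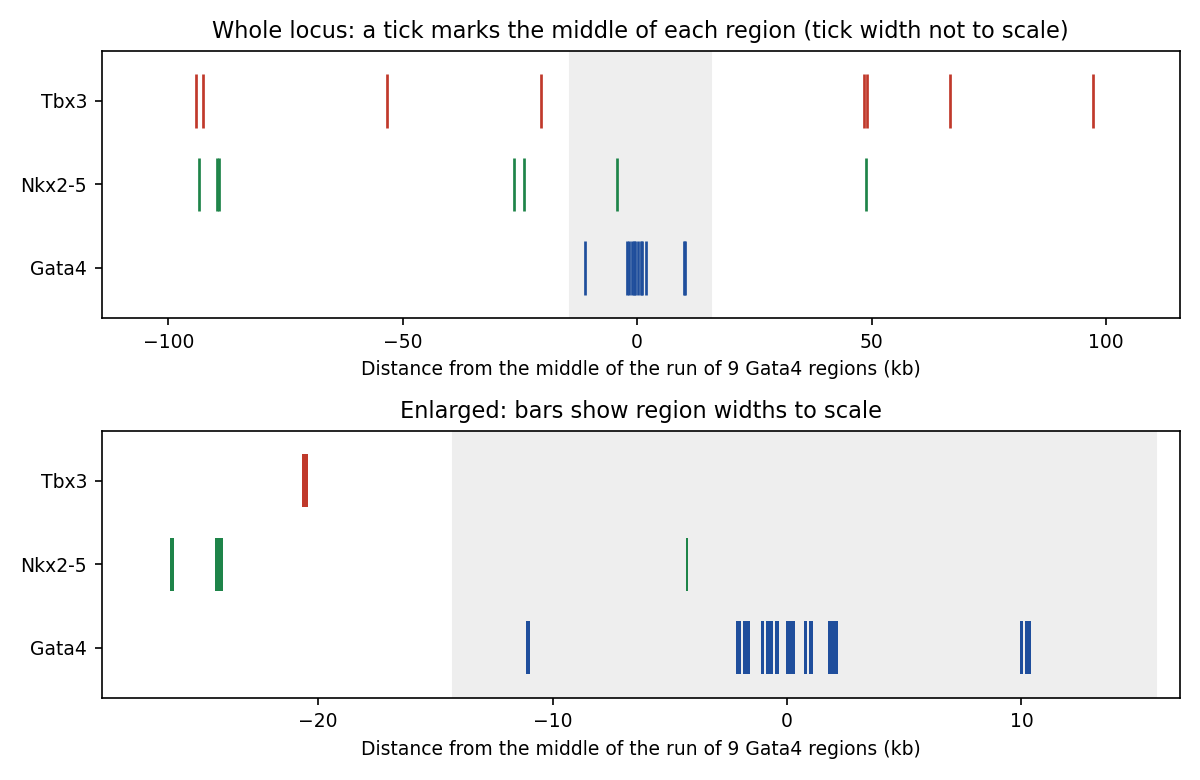
Regions of each factor by distance in kb from the middle of the run of 9 Gata4 regions. Ticks in the upper panel mark region centres, bars in the lower panel are drawn to scale, and grey marks the gene interval. All 12 Gata4 regions and 1 of the 7 Nkx2-5 regions lie in the grey interval, and no Tbx3 region does.

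The Gata4 regions formed 3 places when regions at most 1 kb apart were joined. The first was a single region of 150 bp at 147353113 to 147353262. The second was a run of 9 regions that spanned 4.33 kb, 147362080 to 147366406, and began 8.82 kb after the first. The third, 7.76 kb after the run, was a pair of regions at 147374168 to 147374321 (154 bp) and 147374397 to 147374645 (249 bp), separated by 75 bp. Beyond these, the nearest Gata4 region before the locus was 2.72 Mb away and the nearest after it was 783 kb away.

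Within the run, broad and narrow regions were mixed. The first 2 regions lay at 147362080 to 147362289 (210 bp) and 147362367 to 147362677 (311 bp). The next 3 lay at 147363115 to 147363257 (143 bp), 147363336 to 147363646 (311 bp) and 147363711 to 147363914 (204 bp). A region of 401 bp followed at 147364204 to 147364604, and then 2 narrow regions at 147364967 to 147365102 (136 bp) and 147365196 to 147365362 (167 bp). The last region, 402 bp at 147366005 to 147366406, was the widest of the 27 at the locus. Together the 9 regions covered 2285 bp, or 52.8% of the span. The gaps between them ran from 64 to 642 bp with a median of 191 bp.

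No other place in the Gata4 list had as many regions. Joining the whole list across gaps of at most 1 kb gave 1676 places, of which 1621 held a single region, 41 held 2, 8 held 3 and 5 held 4. The run of 9 was the only place with 5 or more regions, which is 0.0597% of the places. Joined across 500 bp instead, a choice made after the data were seen, the run held 8 regions. In the Tbx3 list no place held 9 or more regions, and in the Nkx2-5 list only a stretch of 13 regions on the mitochondrial genome did.

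**Figure D2:**
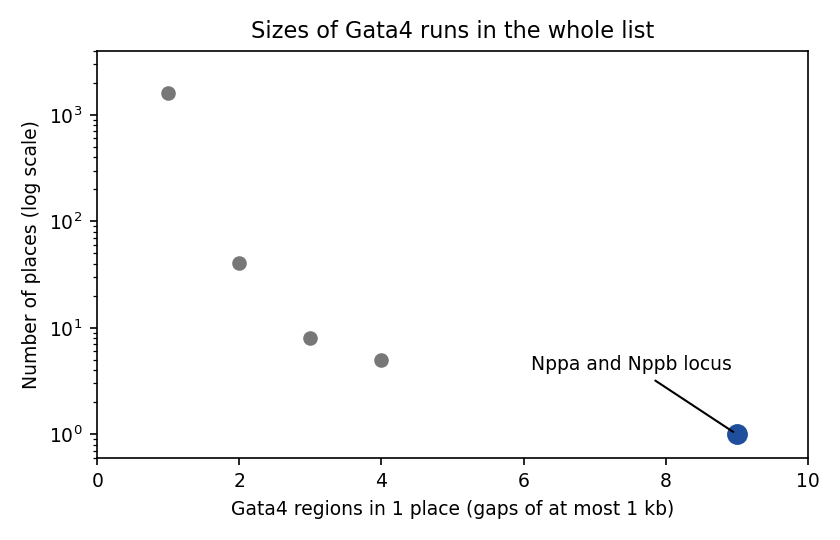
Number of Gata4 places (log scale) by the number of regions in each place, with regions at most 1 kb apart joined. Single regions make up 1621 of the 1676 places, other places reach 4 regions, and the place with 9 is at the Nppa and Nppb locus.

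Unlike the run at the locus, most other long Gata4 runs held regions that overlapped the other lists. The 13 other places with 3 or more Gata4 regions held 44 regions, of which 27 (61.4%) overlapped a Tbx3 or Nkx2-5 region. Over the whole Gata4 list, 43.1% did. Of the 9 regions in the run at the locus, none did. The 44 regions include those of places at positions 3 and 11010 of the mitochondrial genome (4 and 3 regions, 3 overlapping in each). At 39979944 on chromosome 17 and at 98502390 and 98506582 on chromosome 2, all 4, 3 and 3 regions overlapped. These places raise the 61.4%, and the share without them was not computed. The 61.4% therefore cannot stand for the remaining runs. Other places without any overlap were 2 in number, at 3000412 to 3002094 on chromosome 11 and 3016689 to 3017852 on chromosome 4. Both lay near the start of their chromosome, as did 3 places with overlaps, at 3000003 and 3025464 on chromosome 9 and 3004560 on chromosome 18. The nearest Nkx2-5 region lay 2.04 kb from the run and the nearest Tbx3 region 18.3 kb from it. Whether the control library has reads in the run was not tested.

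Against windows of the same length, 230 kb, laid end to end over every chromosome, the number of Gata4 regions at the locus was rarer than that of the other factors. Of 4955 other windows with a region of any list, 1 (0.0202%) held 12 or more Gata4 regions. That window, at 2810001 to 3040000 on chromosome 9, had 14 Gata4, 9 Tbx3 and 10 Nkx2-5 regions and lies at the start of its chromosome. No further window held more than 7 Gata4 regions, and the median over the 1315 windows with any was 1. As many as 7 Nkx2-5 regions were found in 75 windows (1.51%), and as many as 8 Tbx3 regions in 361 (7.29%). The Gata4 number rests on the run: with regions at most 1 kb apart joined, the locus had 3 Gata4 places, and 65 other windows had at least as many.

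Most Nkx2-5 regions lay on the side of 2510039O18Rik and Nppb. A region of 281 bp at 147270593 to 147270873 and a pair at 147274644 to 147274779 (136 bp) and 147274889 to 147275005 (117 bp) lay 75 to 79.1 kb before the gene interval. A stretch of 62.9 kb without an Nkx2-5 region followed. Nearer to the genes were a region of 193 bp at 147337917 to 147338109 and one of 350 bp at 147339833 to 147340182, which ended 9.82 kb before the interval. The latter was the widest Nkx2-5 region of the locus and ranked 121 by width among the 6705 of the list.

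The single Nkx2-5 region in the gene interval, at 147359934 to 147360039, was also the narrowest of the 27 regions at the locus, with 106 bp. Only 9.22% of the Nkx2-5 list was narrower. It began 6.67 kb after the single Gata4 region and ended 2.04 kb before the run. After the genes, the Nkx2-5 list had 1 region of 129 bp at 147412930 to 147413058, 32.9 kb beyond the interval.

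Tbx3 regions lay on both flanks. On the side of 2510039O18Rik and Nppb there were a region of 136 bp at 147270109 to 147270244, one of 237 bp at 147271581 to 147271817, one of 178 bp at 147310774 to 147310951 and one of 224 bp at 147343566 to 147343789. The last of these, 6.21 kb before the gene interval, was the closest Tbx3 region to that interval. On the side of Nppa and Clcn6 there were regions of 163 bp at 147412655 to 147412817, 175 bp at 147413164 to 147413338, 213 bp at 147430946 to 147431158 and 144 bp at 147461330 to 147461473. The first of these began 32.7 kb after the interval. As the hearts overexpressed TBX3, the absence of a listed region at the genes applies to that setting and to the unknown threshold of the list.

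No position was shared between lists. None of the 12 Gata4, 7 Nkx2-5 and 8 Tbx3 regions overlapped a region of another list by 1 bp or more. Over the whole lists, 43.1% of Gata4 regions, 41.4% of Nkx2-5 regions and 19.6% of Tbx3 regions did. So few regions leave room for sizeable shares: 0 of 12, 0 of 7 and 0 of 8 allow up to 26.5%, 41.0% and 36.9% (upper ends of exact binomial 95% intervals). These limits treat regions as independent, which the 9 regions of the run are not. The 12 Gata4 regions form 3 places, so 26.5% is too low a limit and cannot set the locus apart from the 43.1% of the list.

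Nkx2-5 and Tbx3 came close to each other at 2 places without overlapping. After the genes, the Nkx2-5 region of 129 bp sat between the pair of Tbx3 regions, 112 bp after the first and 105 bp before the second. Before the genes, the Nkx2-5 region of 281 bp also sat between a pair of Tbx3 regions, 348 bp after the first and 707 bp before the second. With regions at most 1 kb apart counted as shared, these made 4 of the 8 Tbx3 regions and 2 of the 7 Nkx2-5 regions shared, beside 26.4% and 49.8% of the whole lists. Both places lie outside the gene interval.

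Gata4 regions had no neighbour of another list within 1 kb, whereas 51.4% of the whole Gata4 list had one. The gap from each Gata4 region to the nearest region of another list ran from 2.04 to 14.4 kb at the locus, with a median of 4.55 kb, against a median of 600 bp over the whole list. For all 12 the nearest was the same one, the narrow Nkx2-5 region in front of the run. As 9 of the 12 lie in the run, their gaps are not separate observations. The single Gata4 region at 147353113 lay 6.67 kb from it and 9.32 kb from a Tbx3 region. For Nkx2-5 the median gap was 2.83 kb at the locus and 978 bp over the 6673 list regions on chromosomes that another list also covers, and for Tbx3 it was 2.04 kb and 19.9 kb.

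**Figure D3:**
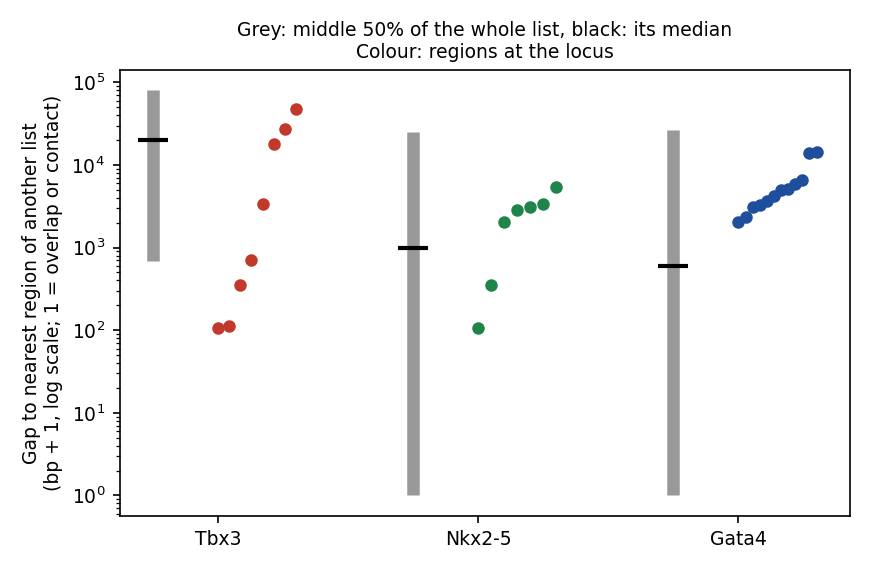
Gap in bp (plus 1, log scale) from each region to the nearest region of another list. Coloured points are the regions at the locus, grey bars the middle 50% of the whole list and black marks its median. The 12 Gata4 points, 9 of them from the run, lie between 2.04 and 14.4 kb, above the list median of 600 bp.

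Crowded windows without overlap were rare. Windows of 230 kb with 20 or more regions of the 3 lists together numbered 52 beside the locus. Only 1 of them (1.92%) had no overlap between lists, a window at 2810001 to 3040000 on the Y chromosome with 20 Nkx2-5 regions and none of the other factors. The 50 autosomal windows among the 52 each had at least 4 regions that overlapped another list. Among the 16 windows with 27 or more regions (15 of them autosomal), the median number of overlapping regions was 14. The locus belongs among these windows only with the regions of the Gata4 run counted singly. Joined across 1 kb, it had 3 Gata4, 7 Tbx3 and 6 Nkx2-5 places, fewer than 20 together. Gata4 was the most frequent factor in only 1 of the 52 windows, so the others differ from the locus in make-up.

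**Figure D4:**
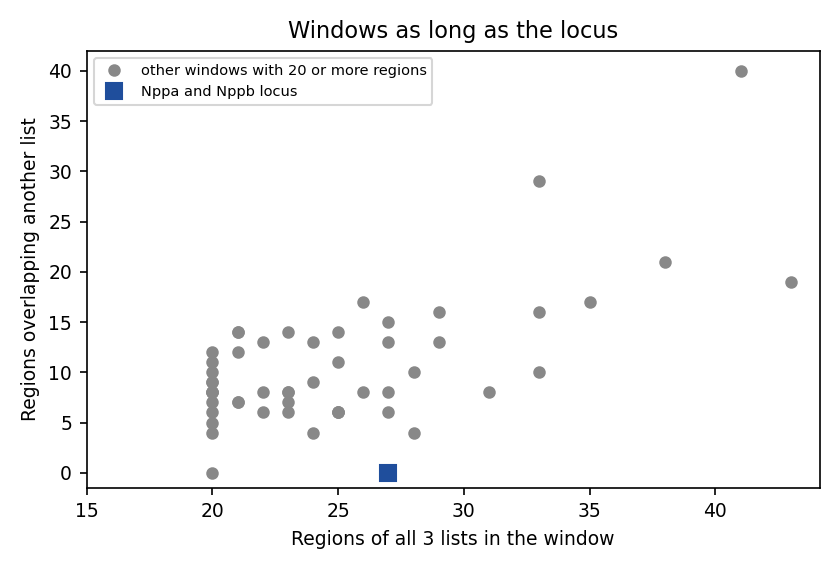
Number of regions that overlap another list against the number of regions of all lists, for windows of 230 kb with 20 or more regions. Points are the 52 other windows and the square is the Nppa and Nppb locus, with 27 regions and 0 overlapping. The Gata4 run counts as 9 of the 27. The other window at 0 is on the Y chromosome.

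Gata4 regions at the locus were wide for their list. Their median width was 207 bp (136 to 402 bp), against 149 bp over the list, and 10 of the 12 were wider than the list median. The difference of 58 bp between the medians was 37.5 bp when regions of 400 bp or more were left out of both. The regions of 401 and 402 bp ranked 22 and 21 among the 1756 Gata4 regions. Of the 23 Gata4 regions of 400 bp or more (1.31% of the list), 18 overlapped another list and 5 did not, and these 5 included both regions at the locus. The 18 include 4 mitochondrial regions and regions at 39979944 and 39984383 on chromosome 17. They also include regions at 98502390, 98503795 and 98506582 on chromosome 2. All of these overlapped both other lists. Tbx3 regions had a median of 176.5 bp (136 to 237 bp), 29.5 bp above that of the list, with 6 of 8 above the list median. Nkx2-5 regions had a median of 136 bp (106 to 350 bp) against 142 bp, with 3 of 7 above it. In a list without scores, width is the only measure of a region, and its relation to the strength of binding is unknown.

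**Figure D5:**
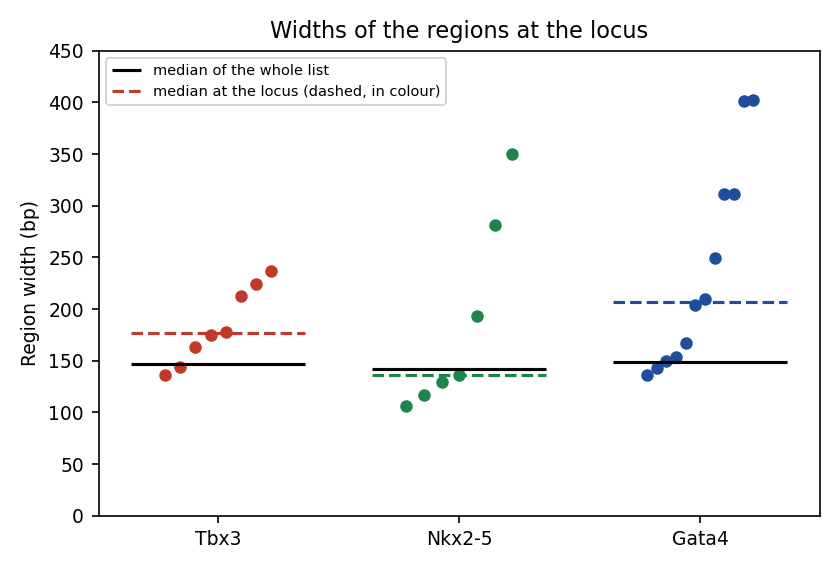
Width in bp of each region at the locus, ordered by width within each factor. Black lines are the medians of the whole lists and dashed lines the medians at the locus. Gata4 points reach 402 bp, with 10 of 12 above the list median of 149 bp, and Nkx2-5 points lie on both sides of theirs.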

How the data were processed

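The authors deposited, for the Tbx3, Nkx2-5 and Gata4 libraries, a list of regions with chromosome, start and end, and no other measure. Positions refer to mm9 (source: the submitters' processing notes). Not given in the sources used here are the aligner, the peak caller and its threshold, the depth and whether the control served in calling. Each list comes from 1 library. Starts were read as counted from 0 and are printed counted from 1.

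Members are the regions that overlap the window by at least 1 bp. Overlap between lists meant at least 1 bp shared. A gap is the number of bases between the ends of 2 regions. Windows started in phase with the locus, and a region on a border counted in both. No test was run, because there are no replicates and no scores. Shares of lists carry exact Clopper-Pearson 95% intervals (SciPy 1.17.1, Python 3.11.15). Counting was tested on simulated data with planted overlaps and runs. RefSeq tables of GRCm38.p6 gave gene order and promoters. No position was converted between builds. The plan for named regions was to give those where lists meet and the 3 widest of each list. All are given, since no lists met. The genes of the natriuretic peptide pathway listed in the plan need an mm9 annotation and were not analysed here. The members, lists and alternatives were chosen with earlier results of these data known.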

Additional observations from a re-analysis of the deposited data

How the results depend on the processing

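The alternatives changed the counts as follows. With about 50 kb on each side of the genes, the locus held 4 Tbx3 and 4 Nkx2-5 regions, and with equal list sizes (the 1756 widest of each list) 1 Tbx3 and 3 Nkx2-5 regions, while Gata4 had 12 in both. Fewer regions enter by the construction of both settings. Gata4 fell from 12 to 4 places when regions were joined across 500 bp and to 3 across 1 kb, while Tbx3 had 7 and Nkx2-5 had 6 at both gaps, so that Gata4 became the least frequent factor. After joining across 1 kb, 65 other windows held as many Gata4 places. Windows of 100 kb gave 982 other windows with as many Tbx3 regions as the fullest part of the locus. Overlap stayed at 0 for every factor when 50% of the shorter region had to be shared and with equal list sizes. Centres within 500 bp counted 2 Tbx3 regions and 1 Nkx2-5 region as shared, and a gap of at most 1 kb counted 4 and 2. Gata4 stayed at 0 in each of these. The differences of median width kept their direction without regions of 400 bp or more (for Gata4 37.5 bp in place of 58 bp), against chromosome 4 alone and against lists without mitochondrial and Y regions. No paired analysis was possible because each factor has 1 library, and no replicate could be left out. Without depth or scores, a missing region cannot be told apart from one below the authors' threshold.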

Other observations

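The locus stands at the edge of a long stretch without regions. From 144812121 to 147270108 on chromosome 4 (mm9), 2.46 Mb, no list had a region. Whether reads can be aligned throughout this stretch was not tested. Of 18345 autosomal stretches between neighbouring regions of any list, 137 (0.747%) were as long or longer, and the longest was 11.6 Mb. On the other side, the next Tbx3 region followed 64.1 kb and the next Nkx2-5 region 125 kb after the last one of the locus.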
